A study of Mus musculus with 12 samples.

Results

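Regulatory T cells are CD4 T cells that restrain other T cells. The transcription factor FOXP3 sets their program, and they take up IL-2 through a receptor that contains the α chain CD25. In tumors of mice and humans they also carry costimulatory receptors of the TNF receptor superfamily and the chemokine receptor CCR8, and part of them secrete IL-10. The 7 genes described here are Foxp3 itself, Ikzf2 (the Ikaros family factor Helios), Il2ra (CD25), Tnfrsf18 (GITR), Tnfrsf4 (OX40), Ccr8 and Il10. They were chosen by symbol, and all 7 were listed among the 30630 genes of the data. The rule used gene identity only. None of the genes is exclusive to regulatory T cells: activated conventional T cells also express Il2ra, Tnfrsf4 and Tnfrsf18, and macrophages can express Il10.

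The tumors came from CT-26 cells, a colon carcinoma line of BALB/c origin, grown under the skin of the right flank of male BALB/c mice that were 4 to 6 weeks old when purchased. Mice in the swimming group swam 2 times per day on 6 days per week for 3 weeks, for up to 30 min at a time, and mice in the control group did not swim. Each group held 10 mice, of which 6 tumors per group were sequenced, 12 in all, from total RNA after removal of ribosomal RNA. All 12 tumors carried the same cell line in the same strain, and no group without a tumor or with another kind of exercise was analysed here. The values are FPKM, a count of sequenced fragments scaled to transcript length and to the total of the library, so levels of different genes can be set side by side.

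The number of reads behind an FPKM value was worked out from the values themselves. This was done on the 13662 genes with 1 annotated transcript. In each tumor, their FPKM multiplied by gene length came in whole multiples of a fixed step, within a tolerance of 0.05 steps, for 98.9% to 99.2% of the values below 200 steps. The values of the 7 genes were whole to within 0.0037 steps, for Foxp3 only at a length of 3989 bases found by a search for whole steps. The most frequent value was 4 steps in all 12 tumors, and 4 steps were taken here as 1 read pair, which is an assumption. On that scale the control tumors held 12364550 to 17812075 read pairs in genes and the swimming tumors 15509250 to 17324950, with control 2 the shallowest at 0.694 of the depth of control 1. The 7 genes drew few of these reads. Over the 12 tumors the median was 46.4 read pairs for Ikzf2, 25.9 for Il2ra, 23.0 for Tnfrsf18, 16.6 for Tnfrsf4, 11 for Foxp3, 4.13 for Il10 and 1.75 for Ccr8. A floor of 3 read pairs corresponded to 0.143 to 0.206 FPKM for Ccr8, and 7 of the 12 tumors lay under it. For Il10 the floor was 0.129 to 0.185 FPKM, with 3 tumors under it, and no tumor lay under the floor for the other 5 genes. These floors cover counting error only.

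**Figure D1:**
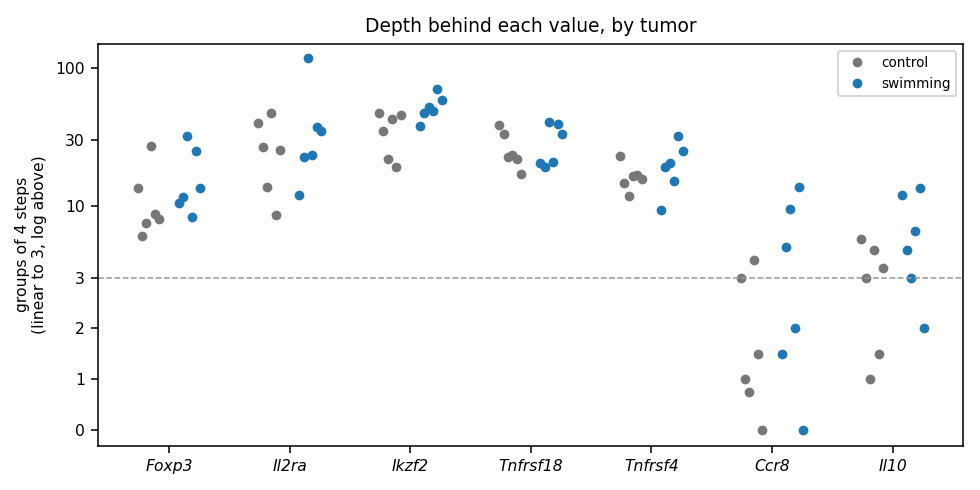
Read pairs behind each value, counted as groups of 4 steps, for the 7 genes in the 6 control (grey) and 6 swimming (blue) tumors. The vertical axis is linear up to 3 and logarithmic above, and the dashed line marks 3 read pairs. Ikzf2 stood on 19 to 70.75 pairs per tumor, whereas Ccr8 stood on 0 to 13.75 and Il10 on 1 to 13.5.

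The genes were placed on the GRCm38 build (GENCODE M21). Foxp3 (ENSMUSG00000039521) spans chrX:7573644-7595245 on the plus strand, Il2ra (ENSMUSG00000026770) chr2:11642807-11693193 on the plus strand, and Ikzf2 (ENSMUSG00000025997) chr1:69531214-69687245 on the minus strand. Il10 (ENSMUSG00000016529) spans chr1:131019845-131024974 and Ccr8 (ENSMUSG00000042262) chr9:120092114-120094906, both on the plus strand. The 2 TNF receptor genes are neighbours on chromosome 4 and are both read from the plus strand, Tnfrsf4 (ENSMUSG00000029075) at chr4:156013843-156016612 and Tnfrsf18 (ENSMUSG00000041954) at chr4:156026164-156028895, 9552 bases further on. The library kit does not mark strand, so reads from overlapping exons of opposite strands cannot be told apart. By annotation this touches Foxp3 most. Its exons share 590 bases with Ccdc22, 373 with Gm36995 and 266 with Ppp1r3f on the opposite strand. They share 853 bases with the noncoding gene Flicr on the same strand. The Foxp3 values were whole only at 3989 bases, whereas these exons cover 4577. Which of the shared bases entered the values is therefore not known. Tnfrsf18 shares 414 exon bases with the antisense gene Gm16008, and Ikzf2 shares 144 with Gm29114.

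Promoters of 4 members that the results turn on are shown here, as the 250 bases before the start given for each entry in RefSeq (GRCm38.p6), on the gene's own strand. These starts differ from the outer ends of the gene spans above, and those of Foxp3, Tnfrsf18 and Ccr8 lie inside the span. Of the 7 genes, 5 matched an entry, with 2 entries for Foxp3, 6 entries in all. Foxp3 is shown with Il2ra and Ccr8 because these were the members whose level varied most like that of Foxp3 from tumor to tumor, and Tnfrsf18 is shown because it and Foxp3 held the letters TTCNNNGAA, the core read by STAT factors such as STAT5 downstream of the IL-2 receptor. Capitals mark that match.
Foxp3, chrX:7580233-7580482, plus strand: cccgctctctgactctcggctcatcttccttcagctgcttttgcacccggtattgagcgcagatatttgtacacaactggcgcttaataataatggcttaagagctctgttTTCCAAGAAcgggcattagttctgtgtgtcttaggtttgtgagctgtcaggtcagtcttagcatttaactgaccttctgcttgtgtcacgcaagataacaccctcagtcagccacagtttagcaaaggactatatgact
Il2ra, chr2:11642542-11642791, plus strand: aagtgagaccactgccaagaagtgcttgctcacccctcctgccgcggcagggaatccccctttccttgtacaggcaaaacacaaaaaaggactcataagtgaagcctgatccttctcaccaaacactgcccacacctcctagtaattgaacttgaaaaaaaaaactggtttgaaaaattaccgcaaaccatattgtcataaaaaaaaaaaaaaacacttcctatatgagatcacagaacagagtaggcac
Ccr8, chr9:120091883-120092132, plus strand: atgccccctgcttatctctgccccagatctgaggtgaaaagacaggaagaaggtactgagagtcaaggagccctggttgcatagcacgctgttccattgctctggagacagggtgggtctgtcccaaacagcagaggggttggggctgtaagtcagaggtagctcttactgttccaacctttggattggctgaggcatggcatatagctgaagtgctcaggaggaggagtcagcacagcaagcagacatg
Tnfrsf18, chr4:156026072-156026321, plus strand: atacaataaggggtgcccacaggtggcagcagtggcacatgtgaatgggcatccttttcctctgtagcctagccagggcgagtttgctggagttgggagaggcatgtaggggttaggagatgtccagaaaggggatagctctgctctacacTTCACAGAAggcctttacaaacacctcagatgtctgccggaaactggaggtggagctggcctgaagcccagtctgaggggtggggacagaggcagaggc

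Both strands were searched for 4 motifs over the 6 entries of the 7 genes. The STAT letters were found as TTCCAAGAA at positions -139 to -131 of the Foxp3 entry shown and as TTCACAGAA at positions -99 to -91 of Tnfrsf18, counted back from the RefSeq start of the entry, and in no other of the 6 entries. Among all 32851 promoters of the same length, 7.02% held these letters. The forkhead letters TGTTTAC (3.17% of all promoters), the AP-1 letters TGANTCA (6.75%) and an NF-kB consensus (0.356%) were in none of the 6 entries. A match of letters is a description of the sequence and not a bound site.

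All 7 genes were expressed at low levels in these tumors. Averaged over the 12 tumors, Tnfrsf18 was highest at 1.11 FPKM ± 0.381 (SD, n = 12), followed by Tnfrsf4 at 0.816 ± 0.260, Il2ra at 0.368 ± 0.305, Il10 at 0.236 ± 0.173, Ikzf2 at 0.232 ± 0.0733, Foxp3 at 0.219 ± 0.133 and Ccr8 at 0.179 ± 0.208. Even Tnfrsf18 had a higher mean than only 34.2% of the 19018 genes tested, and Ccr8 exceeded 8.17% of them. Tnfrsf18 exceeded Tnfrsf4 in 10 of 12 tumors, and Tnfrsf4 exceeded Il2ra in 11 of 12. The order among the lower 4 was loose: Il10 exceeded Ikzf2 in only 4 of 12 tumors although its mean was higher, Ikzf2 exceeded Foxp3 in 8 and Foxp3 exceeded Ccr8 in 9. In these bulk tumor samples, fewer cells of a type and less RNA per cell cannot be told apart.

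**Figure D2:**
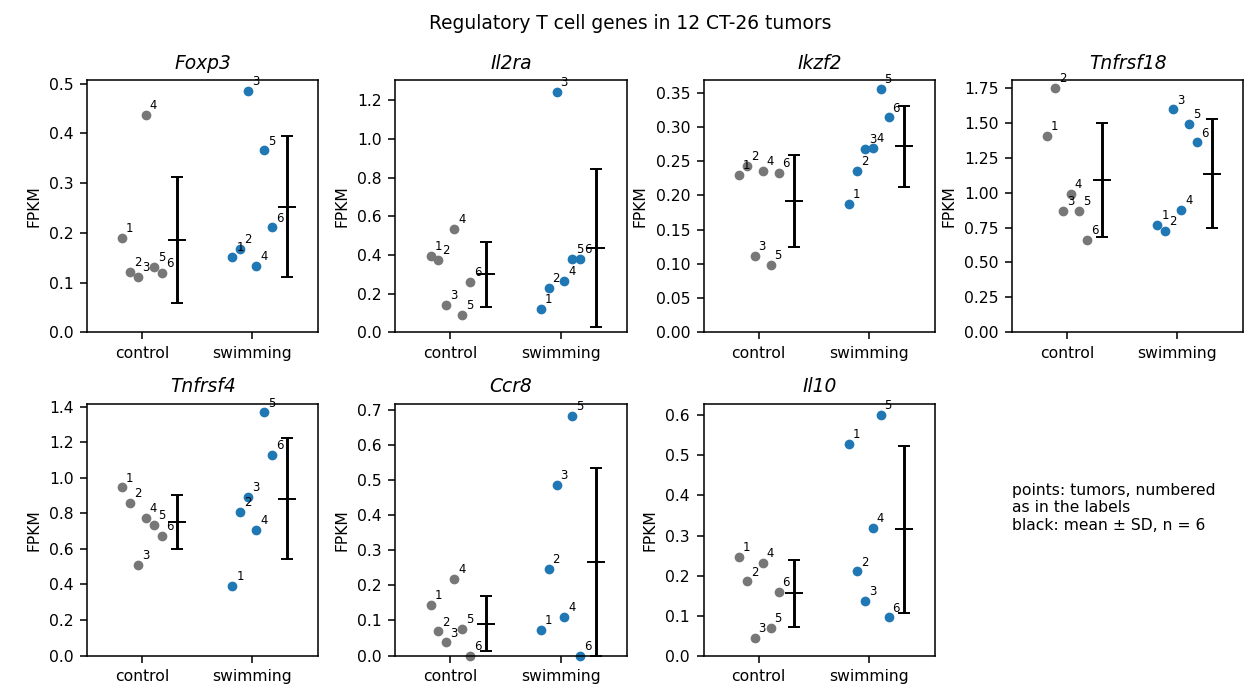
FPKM of each of the 7 genes in every tumor, control in grey and swimming in blue, with the group mean and SD. Each panel has its own linear axis. The ranges of the 2 groups overlapped for all 7 genes, and the highest swimming value was that of swimming 3 for Foxp3, Il2ra and Tnfrsf18 and that of swimming 5 for Ikzf2, Tnfrsf4, Ccr8 and Il10.

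The question behind the design is which genes swimming changes in the tumor. Each gene was compared between the groups with limma on log2(FPKM + 1), with Benjamini-Hochberg adjustment over the 19018 genes that reached 0.1 FPKM in at least 6 tumors, and with a two-sided exact permutation test over the 924 divisions of 12 tumors into 6 and 6. Fold changes are on that log2 scale, which understates changes of genes below 1 FPKM, as most of these are. None of the 7 genes passed the test, at an adjusted or an unadjusted p of 0.05. At the unadjusted threshold, 5.56% of all genes tested passed in either direction, and no gene of the 19018 passed after adjustment by limma, where the smallest adjusted p was 0.204. With a 2-fold change required as well, 0.0684% of all genes passed as higher and 0.0368% as lower. The 7 genes could not pass this rule, since none had an unadjusted limma p under 0.05. All 7 genes had a positive difference, swimming over control, as had 51.7% of all genes, and their median log2 fold change was 0.09 against 0.00387 over all genes tested. The groups overlapped for each of the 7, whereas 0.147% of all genes had groups that did not overlap. The 7 genes were measured in the same tumors and are not independent of each other.

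Foxp3, the transcription factor that defines regulatory T cells, was low in most tumors of both groups and high in a few. In the control group it was 0.190, 0.122, 0.111, 0.438, 0.132 and 0.119 FPKM in tumors 1 to 6, and in the swimming group it was 0.152, 0.167, 0.486, 0.133, 0.366 and 0.211 FPKM. Control 4 and swimming 3 and 5 stood above the rest, and the other 9 tumors lay between 0.111 and 0.211 FPKM. All 6 swimming tumors were above the control median of 0.127 FPKM, but only swimming 3 was above control 4. Compared with the control group (0.185 FPKM ± 0.127, SD, n = 6), the swimming group averaged 0.253 ± 0.142 (n = 6). The log2 fold change by limma was 0.08 (SE 0.08, 95% interval -0.10 to 0.26), with an adjusted p of 0.938 and an exact permutation p of 0.327. It was 0.028 without swimming 3 and 0.14 without control 4. Ccdc22, which shares exon bases with Foxp3 on the other strand, was far higher, at 8.63 to 9.92 FPKM among control tumors and 7.07 to 9.59 among swimming tumors. Its share in the Foxp3 values was not tested.

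Ikzf2 encodes Helios, a factor expressed in many thymus-derived regulatory T cells, and it was the most deeply covered of the 7. Its control values ran from 0.0983 to 0.244 FPKM (median 0.231) and its swimming values from 0.188 to 0.356 (median 0.268). Control tumors 3 and 5 were low at 0.112 and 0.0983 FPKM, and the other 4 were within 0.230 to 0.244. Swimming 3, 4, 5 and 6 exceeded every control tumor, at 0.268, 0.269, 0.356 and 0.314 FPKM, while swimming 1 and 2 fell within the control range. The control mean was 0.192 FPKM ± 0.0676 and the swimming mean 0.272 ± 0.0587 (SD, n = 6 each). The log2 fold change was 0.09 (SE 0.05, 95% interval -0.02 to 0.20), an unadjusted limma p of 0.0896, an adjusted limma p of 0.895 and an exact permutation p of 0.0693. With limma voom on the recovered steps, an alternative added after the data were seen, the log2 fold change of Ikzf2 was 0.58 (95% interval 0.02 to 1.13), an unadjusted limma p of 0.0436 and an adjusted limma p of 0.892. It was the only member under 0.05 in that fit, in which 5.51% of 18974 genes were under 0.05 in either direction.

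Il2ra, the α chain that gives the IL-2 receptor its high affinity, varied widely from tumor to tumor. The control tumors 1 to 6 had 0.393, 0.375, 0.142, 0.533, 0.0895 and 0.262 FPKM, and the swimming tumors 0.121, 0.228, 1.24, 0.265, 0.381 and 0.379. Swimming 3 alone was higher than control 4, and 3 of 6 swimming tumors were below the control median of 0.319 FPKM. The group means were 0.299 ± 0.167 and 0.437 ± 0.407 FPKM (SD, n = 6 each), and the log2 fold change was 0.12 (SE 0.15, 95% interval -0.20 to 0.43), with an adjusted limma p of 0.947 and an exact permutation p of 0.591. The sign rested on 1 tumor, since without swimming 3 the log2 fold change was -0.021, and without swimming 1 it was 0.18.

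Tnfrsf18 (GITR) and Tnfrsf4 (OX40), costimulatory receptors of activated and regulatory T cells, were the most abundant members. Tnfrsf18 ran from 0.662 to 1.75 FPKM among control tumors (median 0.930) and from 0.723 to 1.6 among swimming tumors (median 1.12). Control 1 and 2 and swimming 3, 5 and 6 were at 1.36 FPKM or more, and the other 7 tumors were at 0.988 or less, so that each group held high and low tumors. The log2 fold change of Tnfrsf18 was 0.03 (SE 0.14, 95% interval -0.28 to 0.34), with an adjusted limma p of 0.986 and an exact permutation p of 0.870. It turned to -0.030, -0.029, -0.017 and -0.0010 without control 6, swimming 3, swimming 5 and swimming 6, respectively, and to 0.12 without control 2. Tnfrsf4 ran from 0.508 to 0.946 FPKM among control tumors (median 0.756) and from 0.391 to 1.37 among swimming tumors (median 0.849). Swimming 5 and 6 exceeded all control tumors and swimming 1 was the lowest of the 12. Its log2 fold change was 0.09 (SE 0.11, 95% interval -0.16 to 0.34), with an adjusted limma p of 0.944 and an exact permutation p of 0.478. It was 0.020 without swimming 5 and 0.17 without swimming 1.

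Ccr8, a chemokine receptor found at high levels on regulatory T cells inside tumors, had the largest ratio of group means and the least depth. The control tumors 1 to 6 had 0.143, 0.0688, 0.0377, 0.218, 0.0767 and 0 FPKM, and the swimming tumors 0.0737, 0.247, 0.486, 0.110, 0.683 and 0. Swimming 2, 3 and 5 were above every control tumor, and 1 tumor in each group had no read. The group sums were 10.25 read pairs in the control and 31.75 in the swimming group, of which swimming 3 and 5 held most. The means were 0.0908 ± 0.0784 and 0.267 ± 0.266 FPKM (SD, n = 6 each), a ratio of 2.94. The log2 fold change was 0.19 (SE 0.12, 95% interval -0.06 to 0.44), with an adjusted limma p of 0.899 and an exact permutation p of 0.182. Without swimming 5 the log2 fold change was 0.11. Ccr8 was at or above 0.1 FPKM in exactly the 6 tumors needed to be tested, 2 control and 4 swimming.

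Il10, the secreted inhibitory cytokine of the set, also had few reads, 19.5 pairs over the control and 41.75 over the swimming tumors. The control values were 0.246, 0.185, 0.0451, 0.232, 0.0688 and 0.159 FPKM in tumors 1 to 6, and the swimming values were 0.529, 0.210, 0.138, 0.320, 0.602 and 0.0952. Swimming 1, 4 and 5 were above all control tumors, and swimming 3 and 6 were below the control median of 0.172 FPKM. The means were 0.156 ± 0.0834 and 0.316 ± 0.209 FPKM (SD, n = 6 each), a ratio of 2.02, and the log2 fold change was 0.17 (SE 0.10, 95% interval -0.03 to 0.38). The unadjusted limma p was 0.0905, the adjusted p 0.895 and the exact permutation p 0.128. Without swimming 5 the log2 fold change was 0.12.

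Because adding 1 to values this low compresses the differences, fold changes were also computed on log2(FPKM + 0.1). On that scale the swimming to control fold was 1.62 for Ccr8 (95% interval 0.796 to 3.3), 1.53 for Il10 (0.902 to 2.59), 1.29 for Ikzf2 (0.952 to 1.75), 1.24 for Foxp3 (0.791 to 1.94), 1.22 for Il2ra (0.658 to 2.27), 1.11 for Tnfrsf4 (0.775 to 1.59) and 1.04 for Tnfrsf18 (0.711 to 1.52). Every interval contained 1.

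**Figure D3:**
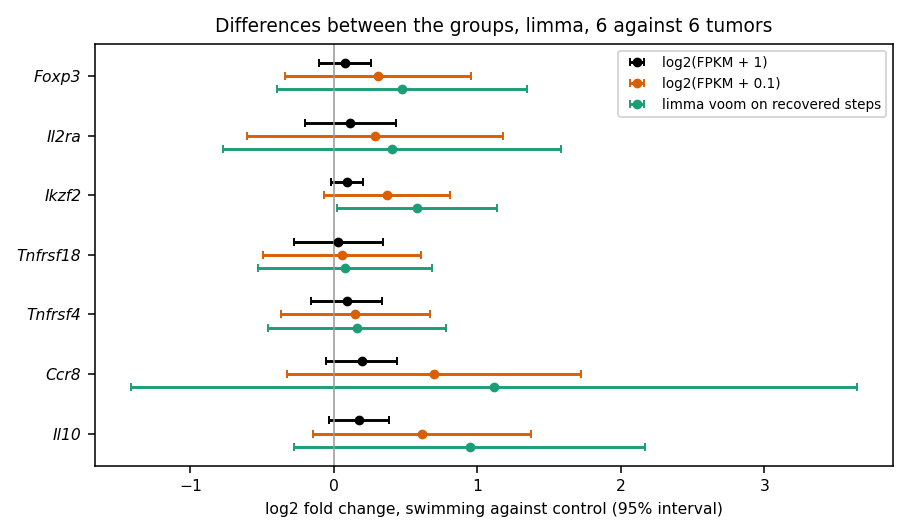
Log2 fold change, swimming over control, with its 95% interval for each of the 7 genes on 3 scales: log2(FPKM + 1) in black, log2(FPKM + 0.1) in orange and limma voom on the recovered steps in green (6 against 6 tumors). All 21 points lie above 0, and the only interval that leaves out 0 is that of Ikzf2 by voom, from 0.02 to 1.13.

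The members varied together only in part from tumor to tumor, Il10 least of them, and single tumors were high for several members. Swimming 5 had the highest value of the 12 for 4 members and was among the highest 3 for 6 of them. Swimming 3 was first for 2 and among the highest 3 for 4, and control 3 was among the lowest 3 for 6. The summed FPKM of the 7 genes ran from 1.83 to 3.61 among control tumors and from 2.22 to 5.25 among swimming tumors. Over the 21 pairs of members, Pearson's r of log2(FPKM + 1) across the 12 tumors ran from -0.07 for Il2ra with Il10 to 0.815 for Foxp3 with Il2ra. The former was the only pair below 0. Among pairs without Il10 the lowest r was 0.425, for Tnfrsf18 with Ccr8.

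**Figure D4:**
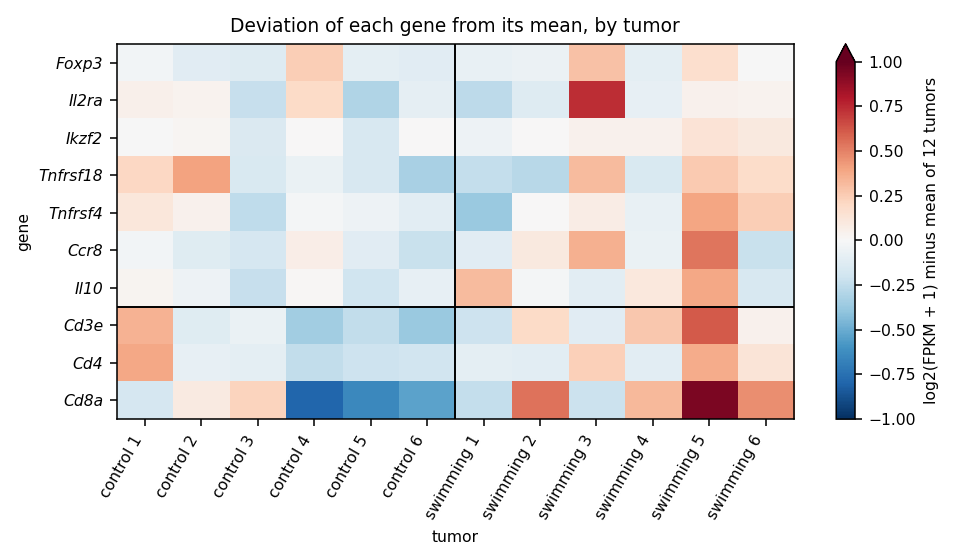
Deviation of log2(FPKM + 1) from each gene's mean over the 12 tumors, for the 7 genes (upper block) and the T cell genes Cd3e, Cd4 and Cd8a (lower block), with tumors in columns. The color scale stops at 1 in either direction. Swimming 5 was above the mean in all 10 genes, whereas control 4 and swimming 3 were above it for Foxp3, Il2ra and Ccr8 and below it for Cd3e and Cd8a.

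Foxp3 was set against the other 6 members and against Cd3e and Cd4 across the 12 tumors, 8 relations in all, with permutation p-values adjusted over the 8. Foxp3 varied most closely with Il2ra (Pearson's r = 0.815, permutation p = 0.0003, adjusted p = 0.0024; Spearman's rho = 0.755, permutation p = 0.00663, adjusted p = 0.053). This relation rested on the tumors with the highest Foxp3: without control 4 and swimming 3, the 2 farthest from the median, r was 0.515 (adjusted permutation p = 0.127). With Ccr8, r was 0.767 (permutation p = 0.00912, adjusted p = 0.0365) and rho 0.690 (permutation p = 0.0158, adjusted p = 0.0632), and without those 2 tumors r was 0.848 (adjusted permutation p = 0.0455) but rho was 0.547 (adjusted permutation p = 0.122). Within the control group r of Foxp3 with Ccr8 was 0.890 and within the swimming group 0.791, and with Il2ra it was 0.728 and 0.881, none of them past the threshold after adjustment by exact permutation, where the adjusted p of these 4 ran from 0.05 to 0.267. Neither of the rank correlations passed after adjustment.

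For the other members, r with Foxp3 over the 12 tumors was 0.487 for Ikzf2, 0.473 for Tnfrsf4, 0.452 for Tnfrsf18 and 0.212 for Il10, none past the threshold by the permutation test. The T cell gene Cd3e, a subunit of the receptor complex of all T cells, had r = 0.0850 with Foxp3 (permutation p = 0.790), and the coreceptor gene Cd4 had r = 0.404 (permutation p = 0.199). Without control 4 and swimming 3 the r of Foxp3 was 0.764 with Cd3e, 0.799 with Cd4, 0.781 with Tnfrsf4 (adjusted permutation p = 0.0172 each) and 0.690 with Ikzf2 (adjusted permutation p = 0.0439). On the same 10 tumors none of the rank correlations passed, with rho from 0.552 for Cd4 to 0.721 for Tnfrsf4 and an adjusted permutation p of 0.121 to 0.122 for these 4 genes. These 2 tumors had the highest Foxp3 of the series and a Cd3e level below the 12-tumor mean.

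**Figure D5:**
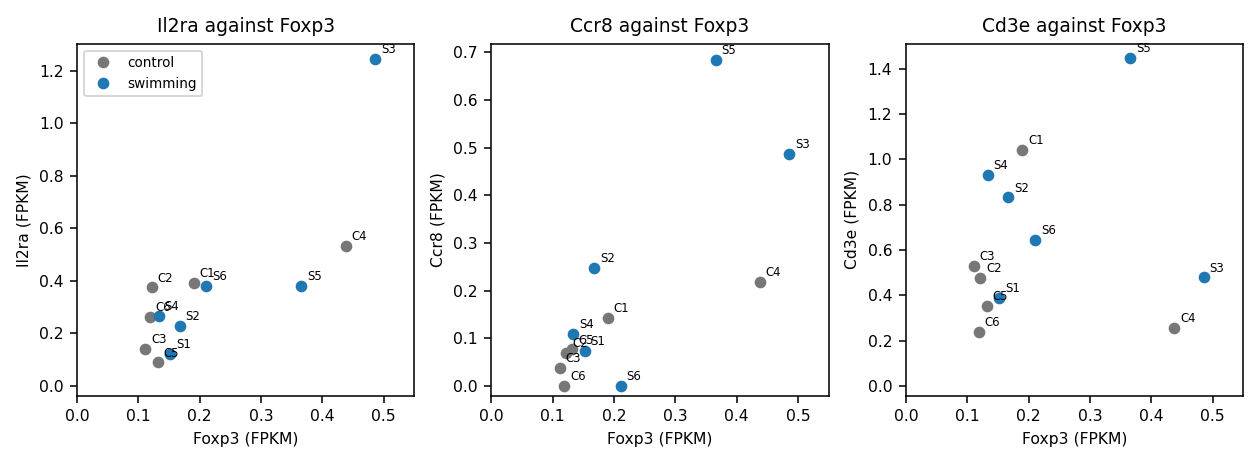
FPKM of Il2ra, Ccr8 and Cd3e against FPKM of Foxp3 in the 12 tumors, control in grey (C1 to C6) and swimming in blue (S1 to S6), linear axes. Il2ra was highest in S3 and C4, and Ccr8 in S5 and S3. Il2ra of S5 (0.381 FPKM) was below that of C1 (0.393), and Ccr8 of C4 (0.218) was below that of S2 (0.247). For Cd3e the 2 tumors with the highest Foxp3, S3 and C4, lay in the lower part of the plot.

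Ratios within a tumor compared Foxp3 with T cell genes. In the control group, Foxp3 stood at 0.182 to 0.496 of the Cd3e level in 5 tumors and at 1.72 in control 4. In the swimming group it stood at 0.143 to 0.391 in 5 tumors and at 1.01 in swimming 3. The log2 ratio of Foxp3 to Cd3e averaged -1.39 ± 1.19 in the control and -1.68 ± 0.976 in the swimming group (SD, n = 6 each), a difference of -0.29 with an exact permutation p of 0.652. The log2 ratio of Foxp3 to Cd4 averaged -1.02 ± 1.14 and -1.09 ± 0.328 (n = 6 each, exact permutation p = 0.913), and that of Cd8a, the coreceptor of cytotoxic T cells, to Foxp3 averaged 3.04 ± 1.33 and 3.53 ± 0.990 (n = 6 each, exact permutation p = 0.498). Adjusted over the 3 ratios, the exact permutation p was 0.913 for each. The differences were smaller than the spread between tumors. Control 4 decided 2 of the signs: without it the difference was 0.15 for Foxp3 to Cd3e and 0.36 for Foxp3 to Cd4. The difference for Cd8a to Foxp3 was 0.48 over all tumors, 0.013 without control 4 and 0.86 without swimming 3.

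Genes of T cells in general stood beside these values as follows. Of the 7 genes listed for T cells in general, 5 were higher in the swimming group at an unadjusted limma p of 0.05, a threshold that 3.11% of all genes passed in this direction, and none passed after adjustment. These 5 were Trac (log2 fold change 0.58), Cd2 (0.54), Cd3d (0.48), Cd3g (0.43) and Cd5 (0.41), while Cd3e had 0.27. The median over the 7 was 0.43, and the summed level of the list ran from 2.46 to 7.68 FPKM among control tumors and from 5.17 to 11.4 among swimming tumors. On log2(FPKM + 0.1), which compresses low genes less, these 7 genes ran from 0.39 for Cd247 to 1.16 for Cd5. On that scale the 7 members ran from 0.06 for Tnfrsf18 to 0.70 for Ccr8. The 2 ranges overlapped only through Ccr8 and Il10 (0.61), the members with the fewest reads. The other members reached at most 0.37 (Ikzf2), below all 7 of the T cell genes. Cd8a (log2 fold change 0.61, unadjusted limma p 0.0187) and Cd8b1 (0.52, 0.025) passed the same threshold, and Cd4 did not (0.14, 0.243). The part of these genes in the values of the 7 members was not tested. Control 4, which had the highest Foxp3 of its group, had the second lowest T cell sum of the 12 tumors at 2.48 FPKM.

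Among 24 other genes known from regulatory T cells, 22 were tested, and 1 of them was higher in the swimming group at the unadjusted threshold. This was the costimulatory receptor gene Icos, and 3.11% of all genes tested passed in the same direction. Icos was 0.361 FPKM ± 0.0973 in the control and 0.630 ± 0.239 in the swimming group (SD, n = 6 each), and 4 swimming tumors exceeded all control tumors. Its log2 fold change was 0.25 (SE 0.09, 95% interval 0.05 to 0.45), with an exact permutation p of 0.0346 and an adjusted limma p of 0.889. The median log2 fold change over the 22 was 0.06. The inhibitory receptor gene Ctla4 ran from 0.216 to 0.855 FPKM among control tumors and from 0.270 to 0.999 among swimming tumors (log2 fold change 0.06, SE 0.14, adjusted limma p 0.976). Tigit, another inhibitory receptor gene of T and NK cells, was at 10.3 to 16.6 FPKM in control tumors and at 9.96 to 13.4 in swimming tumors, above Cd3e in every tumor, with a log2 fold change of -0.11 (SE 0.11).

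The genes around the IL-2 receptor had positive differences, none of them past adjustment. Of 9 genes of IL-2 receptor signalling, all had a positive difference, with a median of 0.18, where 51.7% of all genes tested had one. At the unadjusted threshold, which 3.11% of all genes passed as higher, 2 of the 9 passed. Stat5a, the transcription factor downstream of the receptor, was at 1.15 ± 0.124 against 1.46 ± 0.188 FPKM (log2 fold change 0.19, exact permutation p 0.00649). Il15, a cytokine that signals through the same β and γ chains, was at 1.96 ± 0.466 against 2.68 ± 0.272 FPKM (0.32, exact permutation p 0.0108). Each value is the mean ± SD of the control and the swimming group, n = 6 each, and neither gene passed after adjustment by limma (adjusted p 0.889 for both). The β chain gene Il2rb had a log2 fold change of 0.41 (unadjusted limma p 0.053), the γ chain gene Il2rg 0.17 and Stat5b 0.08. Of 6 other Ikaros and FOXP family genes tested, 1 passed the unadjusted threshold that 3.11% of all genes passed as higher. It was the lymphoid factor gene Ikzf3 (log2 fold change 0.18, exact permutation p 0.0281, adjusted limma p 0.889).

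Of 13 ligands and partners of the members, 10 were tested and none passed even the unadjusted threshold, with a median log2 fold change of 0.04. The ligand of GITR, Tnfsf18, was at 0.0286 to 0.428 FPKM in the control and 0.0281 to 0.367 in the swimming group, and that of OX40, Tnfsf4, was at 0 to 0.348 and 0 to 0.213. Of the CCR8 ligands, Ccl8 was abundant, at 51.5 to 179 FPKM in control tumors and at 60.6 to 279 in swimming tumors (log2 fold change 0.58, SE 0.40, adjusted limma p 0.913), whereas Ccl1 was too low to be tested, at 0 to 0.0501 and 0 to 0.243 FPKM. Ccl22, a chemokine of dendritic cells and macrophages that draws CCR4-bearing T cells, had a log2 fold change of 0.14 (SE 0.19). The IL-10 receptor gene Il10ra was at 6.54 ± 1.22 and 8.15 ± 1.57 FPKM (SD, n = 6 each; log2 fold change 0.28, exact permutation p 0.0866). Il2 itself was not analysed here.

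Markers of other cells were set beside the members in the same way. At the unadjusted threshold, 3.11% of all genes tested were higher in the swimming group. Among 8 genes of cytotoxic cells 1 was, Ifng (log2 fold change 0.55), and among 6 of dendritic cells 2 were, Xcr1 (0.31) and Flt3 (0.17). In the cytotoxic list 7 of 8 differences were positive, and Prf1 was at -0.22. In the dendritic list 4 of 6 were positive, and Clec9a was at -0.0034 and Fscn1 at -0.11. None passed among 5 genes of naive T cells, 3 tested of other helper T cells, 6 of macrophages, 4 of mast cells and type 2 innate cells, 2 tested of B cells, 3 tested of epithelial cells, 5 of skeletal muscle and 3 tested of adipocytes. No gene of any of these lists was lower at this threshold. Between tumors the summed skeletal muscle genes ran from 1.51 to 159 FPKM (control) and 1.14 to 230 (swimming), and the adipocyte genes from 0.301 to 132 and 0.513 to 23.7. The summed genes of epithelial cells ran from 11.8 to 144 FPKM (control) and 9.29 to 21.1 (swimming). They were highest in control 4, where Krt8 alone was at 129 FPKM, and the next control tumor was at 30.4. Their part in the members' values was not tested. Genes of B cells summed to 5.61 FPKM in control 1 and to 0.720 or less in the other control tumors, and to 1.63 in swimming 5 and 0.886 or less in the other swimming tumors. Leaving out control 1 and swimming 5 together, a choice made after the data were seen, left every member without a call.

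By the highest Pearson's r of log2(FPKM + 1) over the 12 tumors, among the 12789 genes with a mean of at least 1 FPKM, the genes most like Foxp3 were Ubash3b (r = 0.918), Cndp2 (0.898), Slfn1 (0.886), G930009F23Rik (0.873) and C3ar1 (0.866). For Ikzf2 they were Ctsc (0.95), Sectm1a (0.933) and Ddx58 (0.920), and for Tnfrsf4 they included Sdf2l1 (0.952) and Clec4a1 (0.918). For Il2ra they were Zfp451, Rab3a and Limd1 (0.863 to 0.850), for Tnfrsf18 Cbr3, Tpst1 and Nectin1 (0.875 to 0.867), for Ccr8 Zfp706, B4galt5 and G930009F23Rik (0.895 to 0.859), and for Il10 Rgs3, Ilk and Fli1 (0.826 to 0.819). These are the highest of many values from 12 tumors and carry no test.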

How the data were processed

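RNA from 6 control and 6 swimming CT-26 tumors was sequenced after ribosomal RNA depletion with a kit that does not mark strand. The authors aligned the reads with HISAT2 2.0.5 and made the deposited FPKM values with StringTie 1.3.3. Their methods name the human build hg38, and the submitters' processing notes list both hg38 and GRCm38, but the deposited gene identifiers are mouse. GENCODE M21 gave symbols for 30542 of the 30630 identifiers. The members, gene lists and tests were chosen with earlier results of these data known.

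Samples were grouped by their labels. The values were tested with limma 3.58.1 (R 4.3.3; lmFit, eBayes with a trend) on log2(FPKM + 1), with group as the only term, for the 19018 genes at 0.1 FPKM or more in at least 6 tumors, with Benjamini-Hochberg adjustment over all of them. Single values were tested by two-sided exact permutation (smallest possible p 0.00216) and correlations over 12 tumors by 100000 permutations (scipy 1.17.1). The methods describe 1 injection site per mouse, so the tumors were taken as coming from separate mice. The scripts were tested on simulated data. Depth was recovered from the whole steps of FPKM times exon length, and Foxp3 was whole at 3989 bases where the annotated exons cover 4577. Alternatives were limma voom on the steps, pseudocounts of 0.1 and 0.01, no filter and a filter of 1 FPKM, rescaled libraries, array weights, a block for the replicate number, and the fit without each tumor in turn. The text names the 7 members, the listed genes at an unadjusted p under 0.05 and a few partners named whatever their values, and the genes most like each member by r. Of the genes most like Tnfrsf4, 1 is not reported here.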

Additional observations from a re-analysis of the deposited data

Results flagged for a closer look

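In 26 groups of 6 values, 4 held a tumor that stood apart from the rest of its group by Dixon's 95% limit, where chance would give about 1.3. These groups did not take in the summed genes of every cell type, so the count holds for them only. Foxp3 was 0.438 FPKM in control 4, and the other control tumors were at 0.190 or less. Il2ra was 1.24 FPKM in swimming 3, and the other swimming tumors were at 0.381 or less. The summed B cell genes were at 5.61 FPKM in control 1, with the next control tumor at 0.720, and at 1.63 in swimming 5, with the next swimming tumor at 0.886. Outside these groups, the summed adipocyte genes were at 132 FPKM in control 1, with the next control tumor at 5.99. The summed macrophage genes were at 739 FPKM in swimming 5, with the next swimming tumor at 556. Without control 1 and swimming 5, a choice made after the data were seen, the log2 fold changes of the 7 members were 0.05 for Foxp3, 0.14 for Il2ra, 0.08 for Ikzf2, 0.03 for Tnfrsf18, 0.05 for Tnfrsf4, 0.12 for Ccr8 and 0.14 for Il10, with adjusted limma p-values of 0.927 to 0.990. Control 4, high for Foxp3, also had the highest sum of epithelial genes, at 144 FPKM. What sets these tumors apart was not tested.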

How the results depend on the processing

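Over 154 alternatives for the 7 members, none passed an adjusted p of 0.05 (smallest 0.660), and 5 reversed the sign, all on leaving out 1 tumor. These were Il2ra (-0.021 without swimming 3, range over the left-out tumors -0.021 to 0.18) and Tnfrsf18 (-0.030 without control 6, -0.029 without swimming 3, -0.017 without swimming 5 and -0.0010 without swimming 6, range -0.030 to 0.12). The log2 ratio of Foxp3 to Cd3e ran from -0.63 to 0.15 and that of Foxp3 to Cd4 from -0.31 to 0.36 on leaving out each tumor, both positive without control 4. The range was 0.013 to 0.86 for Cd8a to Foxp3, 0.028 to 0.14 for the log2 fold change of Foxp3, 0.071 to 0.11 for Ikzf2, 0.020 to 0.17 for Tnfrsf4, 0.11 to 0.26 for Ccr8 and 0.12 to 0.22 for Il10. Without control 4 and swimming 3, r of Foxp3 was 0.515 with Il2ra, 0.690 with Ikzf2, 0.781 with Tnfrsf4, 0.764 with Cd3e and 0.799 with Cd4. Within the control group it was 0.728 with Il2ra, 0.890 with Ccr8, 0.582 with Il10, 0.0098 with Tnfrsf18, -0.20 with Cd3e and -0.14 with Cd4. Within the swimming group it was 0.881 with Il2ra, 0.864 with Tnfrsf18, 0.860 with Cd4, 0.791 with Ccr8, 0.078 with Cd3e and -0.10 with Il10. None of these was past the threshold after adjustment by exact permutation.

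Over all genes, the 1058 at an unadjusted p under 0.05 included 591 higher, which became 391 with a filter of 1 FPKM, a filter that no member passed. The 13 genes past 2-fold and higher became 83 and 132 with pseudocounts of 0.1 and 0.01, 139 with voom and 3 to 36 on leaving out each tumor. The 7 lower ones became 55, 97, 89 and 5 to 11. The counts were 3, 6, 4 and 5 higher without control 5, swimming 3, swimming 5 and swimming 6, and 36 without swimming 1. After adjustment, limma called 0 to 1 genes higher and 0 to 2 lower on leaving out each tumor (1 and 2 without control 4, 2 lower without swimming 1), and 1 lower with array weights.

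The labels number the tumors 1 to 6 in both groups. Same-numbered tumors did not deviate together (correlations -0.32 to 0.00588), so the number was not used as a pairing in the main fit. Whether it stands for an order or a batch cannot be told from these correlations. With the number as a replicate block, 8 genes were past 2-fold and higher, and the 7 members had adjusted p-values of 0.965 to 0.991.

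Fewest reads stood behind Ccr8 and Il10, at 10.25 and 19.5 read pairs over the 6 control tumors. The cause of these shifts was not tested.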
